A study of Homo sapiens with 30 samples.

Results

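The comparison described here is that of H1299 cells expressing p53 *O*6-meG with cells expressing the control vector pGFP, 6 h after transfection, over all genes. It rests on 6 of the 30 RNA-seq libraries of the series, 3 for p53 *O*6-meG and 3 for pGFP, chosen by the column names of the deposited count table. H1299 is a human lung carcinoma line without p53. pGFP carries GFP alone, whereas the p53 *O*6-meG vector carries GFP and the wild type p53 coding sequence with a single *O*6-methylguanine on the template strand at codon 248. The lesion is removed by AGT, the product of *MGMT*, and none of these 6 cultures is named as treated with the AGT inhibitor *O*6-bzG, except that the labels of 1 library conflict, as described next. Both genes of the vector are driven by separate tetracycline response element promoters, all cells were transiently transfected, and RNA was taken from cells sorted for GFP. Groups brought in for reference are wild type p53 (p53 WT), RW mutant p53, altered at codon 248, and p53 TM, the lesion vector in cells given 10 µM *O*6-bzG, all at 6 h, and p53 *O*6-meG and pGFP at 24 h.

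The titles of 2 libraries, replicate 2 of p53 *O*6-meG and replicate 2 of p53 TM at 6 h, contradict themselves. The first part of each title, which is also the column name of the count table, names one of these groups, and the parentheses and the genotype field name the other. The header of the deposited table of normalized counts differs from that of the count table at the same 2 positions. The column names were followed here, and the counts of DEGs are given also without the library named p53 *O*6-meG replicate 2. By the column names, *CDKN1A* stood at 268, 249 and 261 CPM (counts scaled to the effective library size) in the p53 *O*6-meG libraries and at 65.7, 50 and 57.7 CPM in the p53 TM libraries. The 3 libraries of each group thus lay together under the column names, and the second of each would lie with the other group under the parentheses.

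p53 is a transcription factor that binds a DNA element made of a pair of decamers and activates genes for cell cycle arrest, apoptosis, DNA repair, metabolic control and its own degradation. Its protein is kept low by the ubiquitin ligase MDM2, itself a p53 target. Codon 248 encodes an arginine that contacts DNA, so transcripts read correctly past the lesion give wild type protein, and those with a misread base give the RW mutant.

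The 6 libraries held between 38905286 and 58732541 reads on genes, the shallowest being p53 *O*6-meG replicate 3. Mitochondrial genes took 0.144% to 0.307% of the counts with p53 *O*6-meG and 0.171% to 0.351% with pGFP. The 7 listed markers of the carcinoma line, *KRT8*, *KRT18* and *VIM* among them, summed to 4468 to 4784 CPM with p53 *O*6-meG and 4030.3 to 4151 CPM with pGFP. Only 6 of the 7 passed the expression filter and were tested, and none of these was a DEG. Summed markers of alveolar and airway epithelium lay between 2.61 and 5.01 CPM over both groups, and those of leukocytes, endothelium and fibroblasts each at no more than 1.54 CPM, with *PTPRC* at 0. One fibroblast marker, *PDGFRB*, was a DEG, from 0.109 to 0.192 CPM with pGFP to 0.42 to 0.742 CPM with p53 *O*6-meG.

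*MGMT*, which encodes AGT, stood at 14.1, 14.6 and 14.3 CPM with p53 *O*6-meG and at 14.4, 12.9 and 11.5 CPM with pGFP, with no difference past the threshold (log2 difference 0.15, adjusted p = 0.5).

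Of 20875 genes tested, 543 were differentially expressed (DEGs, at least a 2-fold change with an edgeR adjusted p under 0.05), of which 509 were higher and 34 lower with p53 *O*6-meG. These were 2.44% and 0.163% of the genes tested. At an adjusted p under 0.05 with no limit on the fold, 1309 genes were higher and 226 lower, together 7.35%. The median log2 fold change of the 509 was 1.93, or 1.84 when the 30 genes with no read in any pGFP library were placed at the bound that 3 counts per library allow, against 0.030 over all genes. With those genes at the bound, 220 rose at least 4-fold and 64 at least 16-fold. In 126 of the 509, every pGFP library held at most 3 counts, so their fold is poorly fixed from below. The lesion and control libraries did not overlap for 502 of the 509 and 32 of the 34, where 31.4% of all genes tested did not overlap. Without p53 *O*6-meG replicate 2, 461 genes were DEGs (423 higher and 38 lower), and 412 of the 509 and 16 of the 34 were called again. With the 2 conflicting libraries grouped by their parentheses there were 53 DEGs (52 higher and 1 lower), all of them among the 543.

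Most of the risers, 378, were protein-coding genes, 95 were lncRNAs and 36 belonged to other classes. A gene on the opposite strand overlaps 251 of the 543 DEGs. Among the genes named below this holds for *LNCTAM34A*, *MIR34AHG*, *KLHL30*, *NSG1*, *GRHL3*, *TP53I11*, *MDM2*, *PLK3*, *BBC3*, *TP53I3*, *TP53INP1*, *TNFRSF10B*, *FAS*, *DDB2*, *XPC*, *POLH*, *SESN1*, *GLS2*, *DRAM1*, *EPHA2*, *KITLG*, *TP53TG1*, *IRF1*, *ADGRA2* and ENSG00000272077, among others, whose counts are to that extent uncertain. Coordinates below are those of hg38.

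The risers were set beside the p53 element in their promoters. RefSeq windows around the annotated start (GRCh38.p14) were matched by symbol to 12789 of the genes tested and searched for the p53 consensus, a pair of 10-base half-sites with no spacer, with its core bases intact and at most 2 other mismatches. The consensus is its own reverse complement, so that a search of 1 strand covers both. It was found in 28 of the 12789 windows (0.219%) and in 7 of the 305 windows of risers (2.3%), or 7 of 265 (2.64%) for the risers called without replicate 2. A match describes the letters alone, and elements in introns or farther upstream were not searched. Of the 7, 4 are shown because they belong to genes described below, 5′ to 3′ on the strand of the gene with the matched 20 bases in capitals.

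LNCTAM34A: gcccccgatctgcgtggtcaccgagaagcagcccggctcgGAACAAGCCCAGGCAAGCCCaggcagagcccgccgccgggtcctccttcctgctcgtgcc
GLS2: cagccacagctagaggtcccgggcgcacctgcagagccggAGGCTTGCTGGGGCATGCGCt
ACTA2: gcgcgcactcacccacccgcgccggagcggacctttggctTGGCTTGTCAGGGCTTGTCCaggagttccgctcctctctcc
AEN: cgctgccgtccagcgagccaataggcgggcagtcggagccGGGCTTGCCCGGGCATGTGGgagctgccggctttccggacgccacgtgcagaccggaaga

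The *LNCTAM34A* stretch is chr1:9182104-9182203, plus strand, with 0 mismatches in the element. The *GLS2* stretch is chr12:56488112-56488172, minus strand, the *ACTA2* stretch chr10:88991288-88991368, minus strand, and the *AEN* stretch chr15:88621266-88621365, plus strand, each with 2 mismatches. The *LNCTAM34A* stretch also lies within *MIR34AHG* (9148011 to 9198906, minus strand). That of *ACTA2* lies within *FAS* (88953813 to 89029605, plus strand), which rose as well. Which gene of each pair the element serves was not tested. The other 3 windows were those of *AATBC*, *DOCK8* and *ANKRD65*, which rose from at most 0.0524 CPM in any pGFP library to between 0.44 and 1 CPM with p53 *O*6-meG.

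The largest rises among genes of at least 1 CPM came from genes that were almost silent with pGFP. *LNCTAM34A* (chromosome 1, 9182004 to 9196284), a lncRNA, had no read in the pGFP libraries and stood at 1.77, 1.33 and 1.57 CPM with p53 *O*6-meG, at least 26.4-fold higher than 3 counts per pGFP library would give. It lies across from *MIR34AHG*, the host transcript of the p53-induced microRNA miR-34a, which went from 0.101, 0.0873 and 0.0873 CPM to 31, 29.6 and 29.5 CPM (log2 difference 8.31, SE 0.43, adjusted p = 1.6e-13). Without knowing the strand rule of the counting, reads of this overlapping pair cannot be assigned with certainty. *KLHL30*, a kelch family gene, had 1 read over the 3 pGFP libraries and 616 over the 3 lesion libraries, a ratio of 759 after scaling with a counting interval of 136 to 30046. *NSG1*, which encodes a neuronal endosomal protein, had 1 and 549 reads, and *PHLDA3*, an inhibitor of AKT, had 2 and 708 reads. *PHLDA3* stood at 5.19, 6.15 and 5.85 CPM with p53 *O*6-meG, a ratio of 436 with an interval of 120.4 to 3611. The other genes of this kind were *MUC19*, a gel-forming mucin (1.77, 2.96 and 3.24 CPM), *INPP5D*, the lipid phosphatase SHIP1 (1.44, 1.4 and 1.26 CPM), and *GRHL3*, an epithelial transcription factor (0.988, 1.31 and 1.07 CPM). Each had a single read over the 3 pGFP libraries. *TP53I11* rose from 0.0202, 0.175 and 0.0873 CPM to 10.2, 11.1 and 7.86 CPM (log2 difference 6.68, SE 0.58, adjusted p = 2.2e-09). All of these were called again without replicate 2, and *KLHL30*, *NSG1*, *GRHL3* and *TP53I11* were not called under the parentheses (adjusted p = 0.059 to 0.064).

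**Figure D1:**
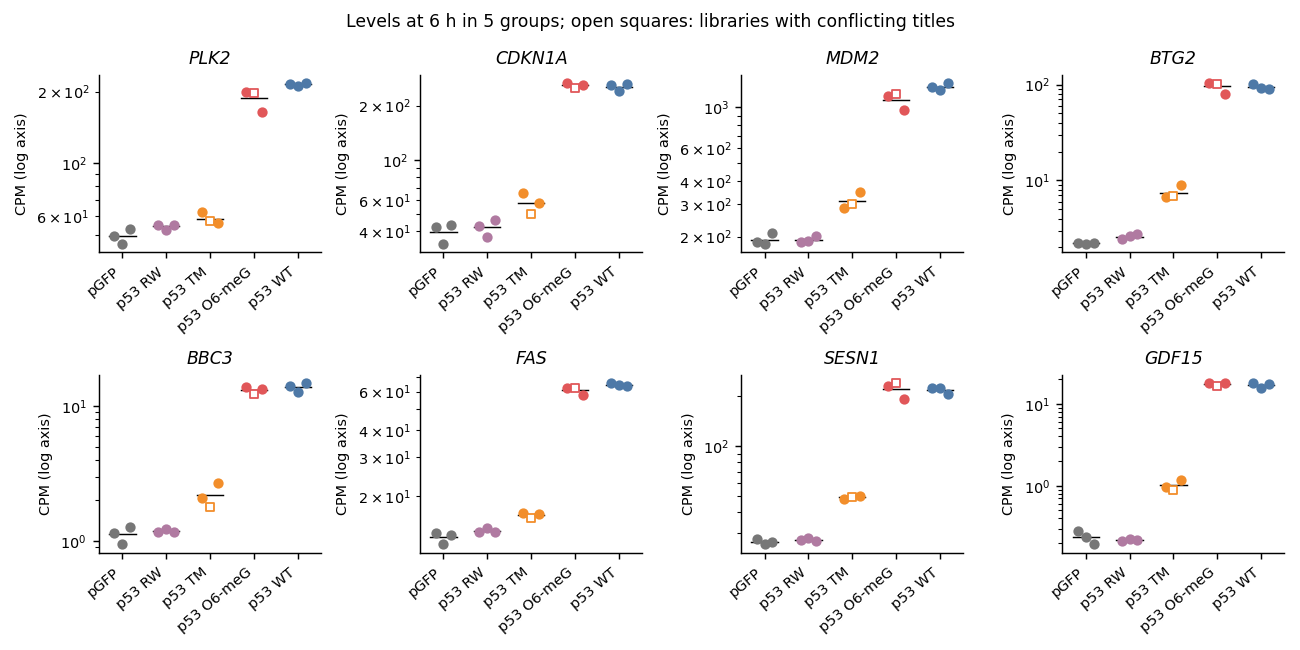
CPM of 8 genes (log axes) in each library of the 5 groups at 6 h, with the group mean as a bar and the 2 libraries with conflicting titles as open squares placed by column name. The p53 O6-meG libraries lie beside those of p53 WT and above pGFP in every panel, and each open square lies with the group of its column name.

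Genes that restrain p53 rose in part. Of 8 tested members of the negative feedback list, 3 were higher and none lower (median log2 fold change 0.38, against 0.030 over all genes). *MDM2* (chromosome 12, 68808177 to 68845544) stood at 1151, 1177 and 972 CPM with p53 *O*6-meG and at 186, 182 and 209 CPM with pGFP, a 5.72-fold rise (log2 difference 2.52, SE 0.15, adjusted p = 1.5e-12). *PPM1D*, the phosphatase WIP1 that reverses p53 phosphorylation, rose 2.5-fold from 24.9, 24.1 and 24.9 CPM to 67.1, 63.8 and 53.8 CPM (adjusted p = 1.8e-10). The third was *PHLDA3*, the inhibitor of AKT described above, which was placed in that list and is not itself a restraint on p53. *CCNG1* had an adjusted p under 0.05 with a log2 difference of 0.59, and *MDM4*, *RCHY1*, *COP1* and *TP73* lay between -0.20 and 0.18.

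Among cell cycle arrest targets, 8 of 21 tested were higher and none lower (median 0.62). *CDKN1A* (chromosome 6, 36676460 to 36687337), which encodes the CDK inhibitor p21, rose 6.49-fold over pGFP libraries at 42.1, 34 and 43.7 CPM (log2 difference 2.70, SE 0.16, adjusted p = 1.6e-12). *BTG2* (chromosome 1, 203305491 to 203309602), an antiproliferative gene, rose 43.3-fold, from 2.2, 2.16 and 2.25 CPM to 105, 101 and 80.5 CPM (log2 difference 5.44, SE 0.16, adjusted p = 8.4e-19). This was the smallest p of the comparison among the arrest targets, and the pGFP libraries differed from each other by less than 0.1 CPM. Both polo-like kinases of the stress response rose. *PLK3* went from 7.51, 7.37 and 7.63 CPM to 22.9, 22.1 and 22.9 CPM, and *PLK2* from 49.7, 45.7 and 52.8 CPM to 199, 197 and 164 CPM (adjusted p = 2.3e-13 and 8.8e-12). The remaining risers were *GADD45A*, *E2F7*, *ZNF385A* and *PRDM1*, between 2.11-fold and 8.26-fold. *ZMAT3*, *RBM38* and *BTG1* passed the adjusted p below 2-fold, whereas *SFN* (log2 difference 0.56) and *RPRM* (0.62) did not pass.

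Intrinsic apoptosis genes gave 8 of 25 higher and none lower (median 0.45). *BBC3* (chromosome 19, 47220822 to 47232766), which encodes the BH3-only protein PUMA, stood at 14, 12.4 and 13.4 CPM against 1.15, 0.938 and 1.27 CPM, an 11.7-fold rise (log2 difference 3.55, SE 0.19, adjusted p = 1.7e-13). *TP53I3*, a quinone oxidoreductase, rose 7.34-fold and *TP53INP1*, a stress-induced cofactor of p53, 6.29-fold. *AEN*, an exonuclease whose promoter stretch is printed above, went from 77.5, 73.6 and 66.4 CPM to 274, 261 and 252 CPM (3.62-fold, adjusted p = 3.1e-13). The other members called were *APAF1*, the core of the apoptosome (3.26-fold), *TRIAP1*, an inhibitor of apoptosis (2.66-fold), *BAK1* (2.29-fold) and *BAX* (2-fold). *BAX*, the pore former of the mitochondrial membrane, lay at the limit itself, with 52, 58.1 and 57.3 CPM against 27.6, 27.7 and 28.2 CPM, and its log2 difference without replicate 2 was 0.97, below the limit. *PMAIP1*, which encodes NOXA, passed the adjusted p at a log2 difference of 0.74. The antiapoptotic genes *BCL2*, *BCL2L1* and *MCL1* and the caspase gene *CASP9* lay between -0.15 and 0.19 and did not pass.

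Death receptor genes had 7 of 14 tested members higher and none lower (median 0.77). *TNFRSF10B*, the TRAIL receptor DR5, stood at 224, 232 and 244 CPM against 72.7, 68.7 and 69.2 CPM (3.33-fold, adjusted p = 3.2e-13). *FAS* rose 4.68-fold, to 62.5, 62.3 and 57.6 CPM, and *TNFRSF10D*, a decoy receptor for TRAIL, rose 3.47-fold, to 227, 237 and 174 CPM. *PIDD1*, the scaffold of the PIDDosome, rose 3.71-fold. *FAS* overlaps *ACTA2* on the opposite strand, and *ACTA2*, smooth muscle actin, also rose, from 2.58, 2.42 and 2.57 CPM to 22.8, 24.6 and 24.1 CPM, so the counts of this pair are uncertain. *TNFRSF10A*, *EDA2R* and *CASP10* were the other members called, and *EDA2R* and *CASP10* stayed below 0.5 CPM in all 6 libraries. *CASP10* was not called without replicate 2 (adjusted p = 0.084). The adaptors *FADD* and *CRADD*, the initiator *CASP8* and the ligand *TNFSF10* lay between -0.08 and 0.00.

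DNA repair targets had 3 of 16 higher and none lower (median 0.13), and all 3 act at damaged DNA. *DDB2* and *XPC*, both damage sensors of nucleotide excision repair, rose 3.24-fold and 2.27-fold, *DDB2* from 28.8, 27 and 26.4 CPM to 90.1, 88.4 and 88.4 CPM (adjusted p = 5.4e-13). *POLH*, the translesion polymerase eta, rose 3.99-fold to 202, 199 and 190.3 CPM (adjusted p = 6.0e-09). *PCNA* (log2 difference 0.76) and *RRM2B* (0.74) were among those that passed the adjusted p below 2-fold. *MSH6*, *APEX1* and *XRCC1* lay between 0.06 and 0.14 and did not pass.

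Metabolic, redox and mTOR-restraining genes had 11 of 22 higher and none lower (median 0.75). *SESN1* (chromosome 6, 108984309 to 109094846) and *SESN2*, the sestrins that restrain mTORC1, rose 8.33-fold and 3.58-fold, whereas *SESN3* had a log2 difference of -0.53 and did not pass. *SESN1* stood at 229.9, 240.0 and 193 CPM against 27.7, 25.5 and 26.4 CPM (adjusted p = 8.6e-16). *FDXR*, the mitochondrial ferredoxin reductase, rose 13.8-fold, from 13, 12 and 12.3 CPM to 182, 182 and 152 CPM. *GLS2*, a mitochondrial glutaminase, rose 15.8-fold, from 0.788, 0.873 and 0.785 CPM to 12.4, 14.4 and 11.8 CPM, and its printed promoter stretch holds an element 29 bases after the start. *PANK1*, a kinase of coenzyme A synthesis, rose 5.87-fold and *TIGAR*, which lowers glycolytic flux, 3.5-fold. *DDIT4*, *ABHD4*, *PRKAB1* and *COQ8A* were between 2.13-fold and 5.28-fold higher. *CYP4F3* was read at 0.186 to 0.225 CPM with p53 *O*6-meG and had no read with pGFP.

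The autophagy and lysosome list had 2 of 15 higher and none lower (median 0.15). These were *DRAM1*, a lysosomal membrane protein (3.12-fold, adjusted p = 2.1e-10), and *ISCU*, an iron-sulfur scaffold placed in that list that is not itself an autophagy factor (2.26-fold, adjusted p = 1.5e-09). *ULK1* passed the adjusted p with a log2 difference of 0.51. Genes for the autophagy machinery, *ATG4A*, *ATG7*, *ATG10* and *MAP1LC3B*, lay between -0.11 and 0.14.

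Of 16 tested genes for secreted and surface proteins 6 were higher and none lower (median 0.54). *GDF15* (chromosome 19, 18374731 to 18389176), a stress-induced cytokine of the TGF-beta family, stood at 17.8, 16.4 and 18 CPM against 0.283, 0.24 and 0.192 CPM, a 72.9-fold rise (log2 difference 6.19, SE 0.22, adjusted p = 3.7e-17). *EPHA2* and its fellow ephrin-system gene *EFNB1*, *KITLG*, the ligand of KIT, *CSF1* and *ADGRG1* rose between 2.14-fold and 3.86-fold. *KITLG* varied most among these, with 65.3, 72 and 35.2 CPM against 20.5, 19.5 and 20.6 CPM. Among p53-linked lncRNAs 4 of 9 were higher and none lower (median 0.45). Beside *LNCTAM34A* and *MIR34AHG* these were *TP53TG1*, from 5.21, 4.76 and 5.17 CPM to 11.5, 13.9 and 11.6 CPM, and *LINC00475*, at 0.0674 to 0.247 CPM. The abundant nuclear lncRNAs *NEAT1* and *MALAT1* had log2 differences of -0.08 and -0.50 and did not pass. All these lists were chosen with earlier results of these data known and hold textbook p53 targets, so their counts describe which targets moved and are not independent evidence of a direction. The background is the 2.44% of all tested genes that were higher. Without p53 *O*6-meG replicate 2 the members called were 3 for feedback, 8 for arrest, 7 for intrinsic apoptosis, 6 for death receptors, 3 for repair, 11 for metabolism, 2 for autophagy, 6 for secreted and surface proteins and 4 for lncRNAs. Under the parentheses they were 3, 4, 5, 3, 2, 5, 0, 1 and 2 in the same order, all higher.

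Cell cycle genes repressed by p53 through p21 and the DREAM complex were read at 6 h as well. None of the 40 tested members of the DREAM and E2F list was a DEG in either direction, at a median log2 fold change of 0.02. Over all genes tested 2.44% were higher and 0.163% lower, so a list of this size would hold few DEGs at that share. By adjusted p alone 2 were higher, *MCM4* (log2 difference 0.23) among them, and none lower, where 1309 of all 20875 genes tested were higher and 226 lower. Values of other members were -0.39 for *MKI67*, 0.10 for *CDK1*, -0.06 for *CCNB1* and -0.19 for *PLK1*. DESeq2 likewise called none of the 40.

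Lists for other stress programmes held few DEGs, as would be so at the share over all genes tested, 2.44% higher and 0.163% lower. The median of the immediate early genes was 0.26, against 0.030 over all genes. By adjusted p alone 4 of these 22 were higher and none lower, where 1309 of all 20875 genes tested were higher. Of 22 immediate early genes 1 was higher (4.55%) and none lower. It was *EGR2*, a zinc finger transcription factor, which went from 0.0808, 0.0654 and 0.0698 CPM to 2.36, 2.82 and 1.81 CPM (log2 difference 4.97, SE 0.45, adjusted p = 5.4e-09), whereas *EGR1* (-0.30), *FOS* (0.06) and *JUN* (-0.18) did not pass. *FOSB* stood at 6.27, 4.66 and 28.7 CPM with p53 *O*6-meG and at 6.08, 7.9 and 7.17 CPM with pGFP, so that replicate 3 alone lay above the controls. Without replicate 2 the list had 3 members called, *FOSB* among them (adjusted p = 0.021). None of 16 genes of the ATF4 stress response was a DEG (median 0.03), and *ASNS*, asparagine synthetase, had the smallest p, with 4.18, 4.94 and 2.8 CPM against 5.09, 6.41 and 7.87 CPM (log2 difference -0.70, adjusted p = 0.029). Of 20 interferon and nucleic acid sensing genes 1 was higher, *IRF1*, a transcription factor that p53 also activates, at 50.1, 51.7 and 38.4 CPM against 13.9, 13.2 and 13.4 CPM (3.47-fold, adjusted p = 1.4e-09). *ISG15* and *APOBEC3C* passed the adjusted p below 2-fold, and *IFIT1* and *MX1* had log2 differences of -0.13 and -0.03.

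Falls were few and mostly at the edge of detection. Of the 34 genes, 4 averaged at least 1 CPM with pGFP. *HBD*, the delta-globin gene, was read at 196, 217 and 122 CPM against 374, 365 and 385 CPM (log2 difference -1.07, adjusted p = 0.033), and *PYGM*, muscle glycogen phosphorylase, at 0.629, 0.979 and 0.385 CPM against 1.82, 1.9 and 2.01 CPM (log2 difference -1.50, adjusted p = 0.047). The others were *TENT5C*, a poly(A) polymerase (log2 difference -1.20, adjusted p = 0.049), and the lncRNA ENSG00000272077 (log2 difference -1.05, adjusted p = 7.8e-04). The count of 34 itself fell to 17 without pGFP replicate 3 and to 20 without pGFP replicate 2, and was 65 with the replicate number as a block, 84 with only the groups compared and 113 with only the 6 h libraries. Apart from *HBD* no gene that fell averaged above 2.55 CPM with pGFP. The calls of *HBD*, *PYGM* and *TENT5C* were lost when single libraries were left out, in turn pGFP replicate 1, 2 or 3 or p53 *O*6-meG replicate 1 or 3, and for *TENT5C* also replicate 2, with adjusted p between 0.053 and 0.2. ENSG00000272077 had a log2 difference of -0.98 without p53 *O*6-meG replicate 3 or pGFP replicate 3, and one just inside the 2-fold limit without pGFP replicate 2, and was then not called.

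The 3 lesion libraries were then compared with each other over the 313 risers that averaged at least 1 CPM. Replicate 3 was the lowest of the 3 for 226 of them (72.2%), against 43.2% of all 13803 genes of that level, and its median deviation from the gene's mean was -0.15 on the log2 scale, against -0.01 over all genes. Replicates 1 and 2 had median deviations of 0.05 and 0.12. Replicate 3 also had the fewest reads of the 6 libraries, and the part of depth in this was not tested. In sorted bulk cells, fewer responding cells and a weaker response per cell cannot be told apart. The DEGs of at least 1 CPM with the widest range were *EPPK1*, which encodes epiplakin (3.53, 4.43 and 1.29 CPM), *ADGRA2*, an adhesion receptor (2.56, 2.73 and 0.879 CPM), and *GRIN2C*, an NMDA receptor subunit (3.66, 6.22 and 2.36 CPM). In contrast, *PLK3* lay between 22.1 and 22.9 CPM and *DDB2* between 88.4 and 90.1 CPM in all 3, a pair picked after their values were seen. The library with the conflicting title, replicate 2, was the lowest for 25 of the 313 (7.99%), against 34.3% of all genes.

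**Figure D2:**
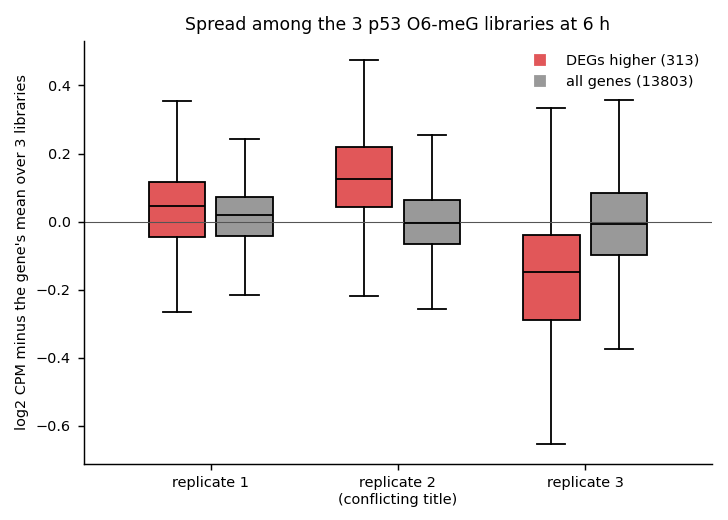
Log2 CPM in each p53 O6-meG library minus the gene's mean over the 3 libraries (vertical axis), as boxes of median and quartiles with whiskers to 1.5 times the interquartile range, for the 313 DEGs that were higher and averaged at least 1 CPM (red) and for all 13803 genes of that level (grey). Among the risers replicate 3 lies lowest (median -0.15) and replicate 2 highest (median 0.12).

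Expression with p53 *O*6-meG was set directly against p53 WT at 6 h, to ask how far the lesion vector with active AGT departed from the unmodified one. In the reported fit 1 gene was a DEG, which is 0.00479% of those tested. The count was 9 with DESeq2, 8 with every gene of at least 1 count, 9 with the replicate number as a block and 21 with only the 6 h libraries, all lower with p53 *O*6-meG, and it was 0 with only the groups compared and without p53 *O*6-meG replicate 2. *MMP15*, a membrane-type matrix metalloproteinase, stood at 0.696, 0.42 and 0.467 CPM with p53 *O*6-meG and at 1.24, 1.79 and 1.8 CPM with p53 WT (log2 difference -1.60, SE 0.23, adjusted p = 0.0038). The pGFP libraries had 0.303, 0.371 and 0.244 CPM. The call was lost without p53 *O*6-meG replicate 2 (adjusted p = 0.14), without replicate 3 (0.083), and without p53 WT replicate 3 (0.065). At an unadjusted p under 0.05, 1822 genes (8.73%) differed, 1219 of them lower with p53 *O*6-meG. *CDKN1A* differed from p53 WT by 0.03, *BBC3* by -0.08, *BTG2* by 0.02 and *MDM2* by -0.23 on the log2 scale, and none passed (adjusted p = 0.63 to 0.97). Over the 509 risers the median difference from p53 WT was -0.38, against -0.01 over all genes, and it was -0.31 without replicate 3 and -0.46 without replicate 2. The value was below that of p53 WT for 461 of the 509 risers (90.6%), against 52.2% of all genes. The risers were chosen for high values in the same lesion libraries, a choice that leans this difference upward. Neither the median nor the share carries a test. *TP53I11* (10.2, 11.1 and 7.86 against 16.2, 16.8 and 24.7 CPM) and *KLHL30* (5.21, 5.52 and 4.04 against 8.12, 8.18 and 11.3 CPM) did not overlap p53 WT, but their differences missed the threshold (adjusted p = 0.45 for both).

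At 24 h, in libraries that share none with the comparison at 6 h, p53 *O*6-meG gave higher expression for 1552 genes (7.43% of those tested) and lower for 389 (1.86%). Of the 509 risers of 6 h, 473 were also risers at 24 h, which is 92.9% of the early list and 30.5% of the late one, and 508 had a positive value. Their median log2 fold change was 2.45 at 24 h, against 0.01 over all genes. With the replicate number as a block, an alternative added after the data were seen, 1583 genes were higher and 421 lower at 24 h, and 475 of the 509 (93.3%) were among the risers. Of the 423 risers called at 6 h without replicate 2, 395 (93.4%) were risers at 24 h. Of the 34 genes that fell at 6 h, 5 were DEGs lower at 24 h (median -0.56).

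**Figure D3:**
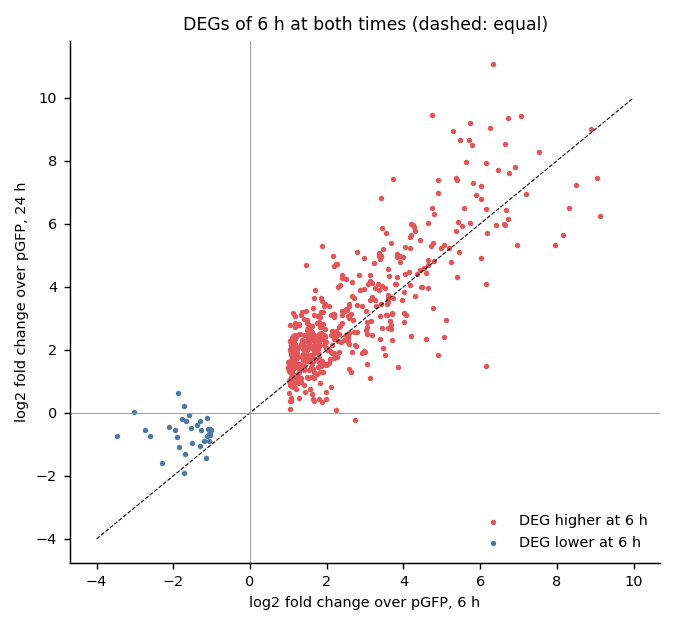
Log2 fold change of p53 O6-meG over pGFP at 24 h (vertical axis) against 6 h (horizontal axis) for the 543 DEGs of 6 h, with equality as a dashed line. All but 1 of the 509 risers (red) lie above 0 at 24 h, and the 34 falls (blue) have a median of -0.56 at 24 h and -1.52 at 6 h.

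The effect itself differed between the times, by the interaction of vector and time, for 369 genes, 290 with a higher value at 24 h (1.39% of those tested) and 79 with a lower one (0.378%). The counts were 333 and 92 with the replicate number as a block, and 298 and 77 without p53 *O*6-meG replicate 2 of 6 h. *VCAN*, the proteoglycan versican, stood at 43.5, 49.3 and 33.5 CPM over pGFP at 14.1, 16.2 and 15.6 CPM at 6 h, and at 247, 195 and 148 CPM over 7.03, 8.31 and 7.71 CPM at 24 h, a difference of 3.21 between the log2 effects (adjusted p = 2.8e-05). *LINC00324*, a lncRNA, did not differ at 6 h (log2 difference -0.04) and stood at 18.4, 24 and 15 CPM against 1.73, 0.863 and 1.93 CPM at 24 h. *LIMA1*, an actin-binding protein, *FERMT1*, an integrin activator, and *PTPRJ*, a receptor phosphatase, had log2 effects of 0.31, 0.51 and 0.17 at 6 h and 1.75, 2.26 and 1.44 at 24 h. Among named targets, *TP53I3* (2.88 and 3.90), *PIDD1* (1.89 and 3.21) and *EFNB1* (1.18 and 2.34) had larger effects at 24 h, and *CDKN1A* (2.70 and 3.66) passed the adjusted p below the 2-fold limit. Effects of *BTG2*, *BBC3* and *GDF15* did not differ past the threshold (adjusted p = 0.37 to 0.5).

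The cell cycle genes were then compared between the times. Over the 40 DREAM and E2F genes the median effect went from 0.02 at 6 h to -0.52 at 24 h, and the effect was lower at 24 h for 17 by adjusted p alone, where 2.78% of all genes tested were lower by the same rule. The other 23 did not pass. Of the 17, *CDK1* (0.10 and -1.02) and *CCNE2* passed the 2-fold limit. The number was 22 with the replicate number as a block and 16 without p53 *O*6-meG replicate 2 of 6 h. *CCNE2*, cyclin E2, stood at 107, 109.7 and 90.5 CPM with p53 *O*6-meG at 6 h against 102, 105 and 98.6 CPM, and at 35.4, 31.6 and 31.3 CPM at 24 h against 78.5, 79 and 68.4 CPM. It overlaps genes on the opposite strand. *CA2*, carbonic anhydrase 2, *GPR19*, an orphan receptor, *PLXND1*, a semaphorin receptor, and *RALGPS2*, an exchange factor for Ral, had log2 effects between -0.30 and 0.19 at 6 h and between -1.44 and -1.03 at 24 h. From 6 h to 24 h, mean CPM of *GPR19* went from 12.1 to 5.29 with p53 *O*6-meG and from 12.4 to 11.2 with pGFP. *CA2* went from 13.7 to 12.5 with p53 *O*6-meG and from 12 to 25.4 with pGFP. *RALGPS2* went from 10.2 to 9.49 and from 12.5 to 25.9 in the same order, and *PLXND1* from 4.48 to 12.5 and from 4.97 to 28.9. *SFN*, *RPRM* and *BIK*, targets that had not passed at 6 h, had effects of 2.53, 1.94 and 2.29 at 24 h, larger by the interaction at an adjusted p under 0.05.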

How the data were processed

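RNA was sequenced from GFP-sorted H1299 cells in 30 libraries, 3 for each of 10 groups. The authors aligned single reads to hg38 with STAR 2.5.3a and counted them on GENCODE v27 genes with featureCounts of Subread 1.5.2, and the deposited values used here are these raw read counts, not normalized. Libraries came from a stranded total RNA kit with rRNA depletion, and its strand option is not given in the sources used here. The deposited normalized table was used for its header only, and 0 columns of sample values were left out. Of 39359 genes, 38904 were matched to GENCODE v44 for coordinates and 455 were not. Depth was 32302699 to 71950532 reads on genes per library, and counting intervals and floors cover counting error only.

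The analysis used edgeR 4.0.16 under R 4.3.3. After filterByExpr, which kept 20875 genes, libraries were scaled by TMM, all 10 groups fitted together, and contrasts tested by the quasi-likelihood test with Benjamini-Hochberg adjustment over all genes. SEs were derived from the estimate and its F statistic. CPM are TMM-scaled. A fold over a group with no read is a bound at 3 counts per library. Counting intervals are exact (Clopper-Pearson, 95%) on summed counts. The labels number the replicates, and the authors describe them as biological triplicates.

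Members, gene lists and tests were chosen with earlier results of these data known. Genes named are *MGMT* and *CDKN1A*, the 10 largest rises and falls among DEGs of at least 1 CPM whose groups do not overlap, up to 4 DEGs with the smallest p in each of 13 lists (or the member with the smallest p), up to 5 on each side with the smallest p against p53 WT and between times, and the 3 DEGs of widest range among lesion libraries. Other members called in a list, those just below the limits, and genes with a promoter match were named after their values were seen. Results for some genes that the rule names are not reported here. Alternatives were DESeq2 1.42.0, its size factors, other filters, other sets of libraries, a replicate block, no fold limit, the other grouping, and each library left out.

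Same-numbered libraries of p53 *O*6-meG and pGFP had residual correlations of 0.221 to 0.51 at 24 h, where the numbers are taken as pairs. At 6 h they had 0.051 to 0.07, against -0.057 to -0.004 for different-numbered ones, so a weak pairing may be present. The numbers are not taken as pairs at 6 h. The reported fit has no block. Blocked counts are given beside the results of 24 h and also for 6 h, where the falls went from 34 to 65. The block is the replicate number, shared by all libraries of both times, so it does not model pairs at 24 h alone. No library duplicated another of its group (chi-square per degree of freedom 5.11 to 24.18). The fit was also tested on simulated counts. Their means came from pGFP at 6 h, with known changes put into the p53 *O*6-meG libraries of 6 h. By adjusted p alone, with no fold limit, the fit recovered 162 of 200 changed genes and called 5 unchanged ones among 19174 tested. The planted changes were of mixed size and direction, and recovery is pooled over them. Simulated libraries were drawn independently, with no effect shared by a replicate number, so the error rate under such an effect was not tested. Changed genes were drawn above a minimum level with pGFP, so recovery of genes almost silent with pGFP was not tested.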

Additional observations from a re-analysis of the deposited data

Results flagged for a closer look

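Genes whose effect of p53 *O*6-meG over pGFP differed between 6 h and 24 h, by the test of the interaction, numbered 369. Among the genes named, the log2 effect at 24 h minus that at 6 h was 3.71 for *LINC00324*, 3.21 for *VCAN*, 1.75 for *FERMT1*, 1.43 for *LIMA1*, 1.32 for *PIDD1*, 1.28 for *PTPRJ*, 1.16 for *EFNB1* and 1.02 for *TP53I3*. It was -1.22 for *CA2*, -1.21 for *CCNE2*, -1.14 for *RALGPS2*, -1.06 for *PLXND1* and -1.04 for *GPR19*. The calls of *TP53I3*, *GPR19* and *PLXND1* lie at the 2-fold limit and were lost when single libraries were left out.

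In the reported fit *MMP15* was the 1 DEG between p53 *O*6-meG and p53 WT at 6 h, by -1.60 on the log2 scale, at levels under 2 CPM, whereas other fits called 0 to 21 genes.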

How the results depend on the processing

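Against pGFP at 6 h the 543 DEGs became 314 (305 higher and 9 lower) with a mean of at least 1 CPM required, 53 (52 higher and 1 lower) with the conflicting libraries grouped by their parentheses, and 1535 with no fold limit. All other settings stayed within 1.5 times the count, among them DESeq2 (525) and both conflicting libraries left out (455), and leaving out single libraries gave 454 to 559. The replicate block gave 602 DEGs (537 higher and 65 lower). The split of higher and lower moved most with the libraries fitted, to 390 higher and 84 lower with only the groups compared and to 494 and 113 with only the 6 h libraries. Against p53 WT the 1 DEG became 9 with DESeq2, 8 with every gene of at least 1 count, 9 with the replicate block, 21 with only the 6 h libraries, 0 with only the groups compared and 0 with both conflicting libraries left out, and 0 to 1 without single libraries. All DEGs of these fits were lower with p53 *O*6-meG. *MMP15* itself had log2 differences of -1.87 to -1.45 and lost its call in 5 of 16 settings. For the time difference the 369 genes became 425 (333 higher and 92 lower) with the replicate block and 1604 with no fold limit, and leaving out single libraries gave 235 (without p53 *O*6-meG replicate 1 of 24 h) to 484 (without its replicate 3). The cause of these shifts was not tested, apart from the fewer genes or samples that a setting holds by construction.

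For the 49 named genes that were DEGs against pGFP, no direction reversed in 780 values, and 46 values lost the call, 25 of them by the parentheses. These include *PLK2*, *XPC*, *PANK1*, *PIDD1*, *DRAM1*, *ISCU*, *EPHA2*, *EFNB1*, *KITLG*, *EGR2*, *IRF1* and *VCAN*. The sign turned for uncalled genes near 0. *CCNE2*, 0.01 in the reported fit, was -0.02 with DESeq2 or its size factors, -0.04 with a mean of at least 1 CPM, with only the groups compared and with both conflicting libraries left out, -0.03 with only the 6 h libraries, and -0.04 to 0.09 without single libraries. *GPR19* (-0.04) was 0.01 with both conflicting libraries left out and -0.08 to 0.03 without single libraries, and *LINC00324* (-0.04) was -0.17 to 0.11 without single libraries. The scaling moved the median of all genes by 0.028. In 126 risers each pGFP library held at most 3 counts, and the part of depth in the calls was not tested.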
